A study of Mus musculus with 3 samples.

Results

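Heat shock proteins and endoplasmic reticulum (ER) chaperones were followed in mouse ovarian surface epithelial cells that passed from an epithelial to a mesenchymal state. Members were all genes whose name on the array began with Hsp (except Hspg2, a matrix proteoglycan), Dnaj, Cct and a digit, Pdia or Fkbp, together with Calr, Canx, Hyou1, P4hb, Sdf2l1, Xbp1 and Herpud1 where listed. This gave 44 names on 57 probes, which stand for 43 genes under current symbols, of 17582 features tested. By their known place in the cell, 11 work in the ER, 28 in the cytosol or nucleus and 3 in the mitochondrion. The last, Hacd3, entered only through an old Hsp-like name and is a fatty acid elongation enzyme, not a chaperone.

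The samples were 3 cultures of ovarian surface epithelium, the cell layer covering the ovary, from superovulated and mated C57/Bl6 females. Each culture gave cells kept epithelial in 2.5% fetal bovine serum and cells grown for 1 week in 15% serum, which became mesenchymal. The sample titles call them before and after the transition. Serum and phenotype changed together, and so would any difference in time in culture. No group had only 1 of these changes, so they cannot be told apart. The epithelial and mesenchymal RNA of each culture shared 2 arrays, which differed in the dye (Cy3 or Cy5) given to each RNA, so that there were 6 arrays in all. Each value below is a log2 ratio of mesenchymal over epithelial RNA, averaged over the 2 arrays of a culture, and means carry the SD over cultures (n = 3 unless stated). A gene is said to have risen or fallen where limma's Benjamini-Hochberg adjusted p over all features was under 0.05.

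Chaperones bind proteins that are not yet folded, or that have lost their fold, and release them after cycles of ATP use. HSP70 proteins do this with J-domain proteins (the Dnaj genes), which bring clients and speed ATP hydrolysis, and with exchange factors such as the HSP110 proteins. In the ER, secreted and membrane proteins are folded by the HSP70 protein BiP (Hspa5), the lectins calnexin and calreticulin, and disulfide and prolyl isomerases, and a load of unfolded protein there raises these genes through the unfolded protein response. In the cytosol, heat shock factor 1 raises HSP70, HSP90 and small heat shock protein genes under stress.

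Dye had a large part in single arrays. With all ratios written as mesenchymal over epithelial, pairs of arrays that shared a dye orientation had correlations over probes of 0.81 to 0.93, and pairs that did not had -0.53 to -0.14. The cultures, each averaged over both orientations, correlated at 0.59 (1 and 2), 0.63 (1 and 3) and 0.88 (2 and 3), so that culture 1 stood apart. All 57 probes passed the filter on dim probes, and 54 lay above the 95th percentile of the negative control spots in both RNAs on all 6 arrays. Saturation, a signal at the ceiling of the scanner that hides any difference above it, was frequent. The probe used was saturated for an RNA on at least 3 arrays for 14 of the 43 genes, against 400 of all 17582 features (2.28%). Of 8 measured markers of ovarian surface epithelium, all 8 exceeded the negative controls on every array and 6 fell (Krt7, Krt8, Krt19, Msln, Wt1 and Gpm6a). Markers of leukocytes (3 of 3), endothelium (3 of 3), granulosa cells (5 of 6), theca cells (4 of 5) and oocytes (4 of 4) exceeded the negative controls too, and of these lists only Inhbb, a granulosa marker, was called, as lower. This is a low bar, which 54 of the 57 member probes passed as well, and its share over all features was not computed. Passing it does not show that such cells were present, and any part of them in the results below was not tested.

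Of the 43 genes, 2 rose and 3 fell in mesenchymal cells. The share called, 11.6%, lay beside 11.9% of all features tested (5.96% higher and 5.92% lower), so that the members were called about as often as features in general. All 3 that fell were J-domain proteins of the ER, namely Dnajc3, Dnajc1 and Dnajb9. Both that rose, Dnajc8 and Fkbp3, are nuclear proteins. The median log2 ratio was -0.32 over the 11 ER members, 0.05 over the 28 cytosolic and nuclear members and -0.02 over the 3 mitochondrial members, beside -0.0030 over all features. In these bulk samples fewer cells of a type and less RNA per cell cannot be told apart.

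**Figure D1:**
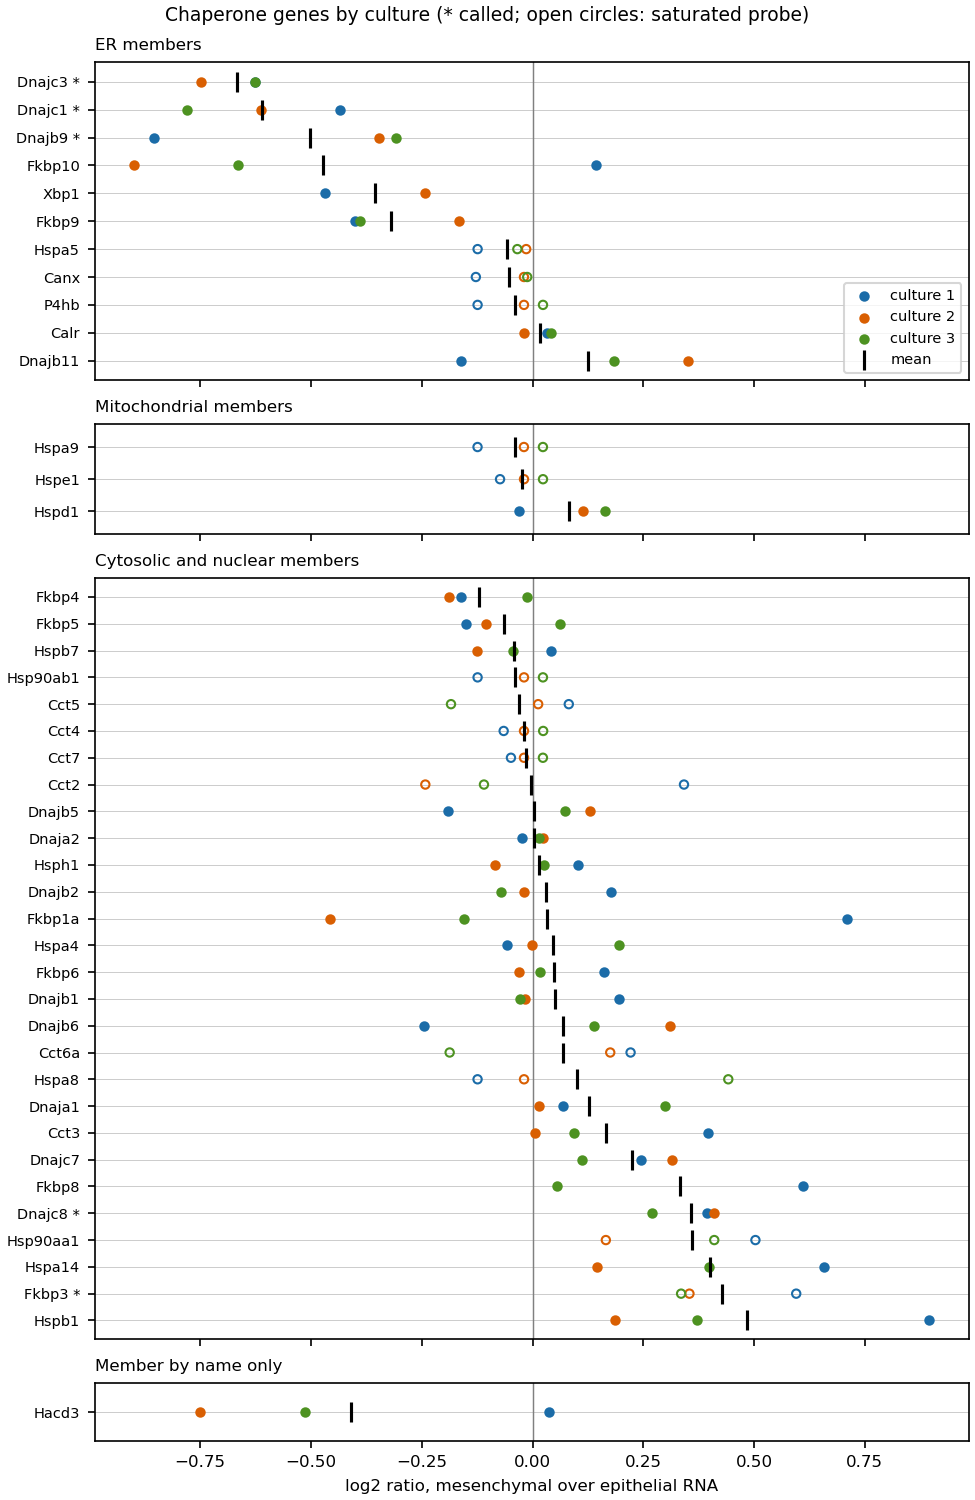
Log2 ratio of mesenchymal over epithelial RNA for each of the 43 genes (x axis), one row a gene, with a point for each of the 3 cultures and a black bar at their mean; open circles mark genes whose probe was saturated and asterisks the 5 called genes. Dnajc3, Dnajc1 and Dnajb9 lie left of 0 in every culture, most cytosolic genes lie around 0, and culture 1 lies apart for Fkbp1a, Fkbp10 and Hacd3.

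Dnajc3 encodes an ER J-domain protein that helps BiP with its clients and is also known as an inhibitor of the kinase PKR. Its log2 ratio was -0.63 in culture 1, -0.75 in culture 2 and -0.63 in culture 3. It was below 0 on all 6 arrays, and the cultures differed little. The mean was -0.67 ± 0.07, or 1.59-fold lower (adjusted p = 0.0028). This value came from the brightest probe, which reaches Dnajc3 through an expressed-sequence name. The probe that carries the name Dnajc3 gave -0.55, 0.03 and -0.32, and used in its place it left the gene at -0.28 (adjusted p = 0.224, within a range of 6.39e-16 to 0.258 over all alternatives). The fall of Dnajc3 therefore rests on 1 of its 2 probes.

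Dnajc1 encodes a J-domain protein of the ER membrane that binds BiP on one side and ribosomes on the other. It stood at -0.44, -0.61 and -0.78 in cultures 1, 2 and 3. Its mean was -0.61 ± 0.17 (adjusted p = 0.00821), 1.53-fold lower. All 6 arrays were below 0, but far apart by dye. The 3 arrays with epithelial RNA in Cy3 averaged -1.03 and the other 3 averaged -0.19. Without culture 3 the value, at -0.52, was no longer called.

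Dnajb9, an ER J-domain protein that takes part in the disposal of misfolded proteins, stood at -0.85 in culture 1, -0.35 in culture 2 and -0.31 in culture 3. Culture 1 gave more than the other two, and 5 of 6 arrays were below 0. The mean of -0.50 ± 0.30 was just past the threshold (adjusted p = 0.0476). Its array means were -0.93 with epithelial RNA in Cy3 and -0.07 with it in Cy5. The call was lost in 6 of 15 alternatives that kept both dye orientations, leaving out culture 2 (-0.58) or 3 (-0.60) among them, where the value itself was larger. Dnajb11, a soluble ER J-domain protein that also works with BiP, was not called. Its cultures gave -0.16, 0.35 and 0.18, on both sides of 0, with a mean of 0.12 ± 0.26 (adjusted p = 0.609). Without culture 1 it was called higher, at 0.27 (adjusted p = 0.00444 with n = 2, within 0.00444 to 1.00 over all alternatives). Under that setting 32.2% of all features were called.

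Hspa5, the HSP70 protein of the ER and the partner of these J-domain proteins, had log2 ratios of -0.12, -0.01 and -0.03. The epithelial signal stood at the ceiling on 5 of 6 arrays and the mesenchymal signal on 4, which limits any ratio to near 0. P4hb, a protein disulfide isomerase, was saturated for both RNAs on all 6 arrays and has no measurable fold. For Canx, the membrane-bound lectin chaperone, the ceiling was reached by the epithelial signal on 6 arrays and by the mesenchymal one on 4. Calr, the soluble lectin chaperone of the ER, was not saturated on any array. It gave 0.03, -0.02 and 0.04, with a mean of 0.02 ± 0.03 and a 95% interval of -0.15 to 0.18. Its cultures lay close together around 0.

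Xbp1 encodes a transcription factor of the unfolded protein response. It was measured in 2 cultures only, since an outlier-flagged spot removed culture 3, and gave -0.47 and -0.24 (mean -0.36 ± 0.16, n = 2, adjusted p = 0.102). Its 3 arrays with epithelial RNA in Cy3 were below 0 and the other 3 above 0. Fkbp9 and Fkbp10 are ER prolyl isomerases, of which Fkbp10 is known for its part in collagen folding. Fkbp9 gave -0.40, -0.17 and -0.39, all below 0, with a mean of -0.32 ± 0.13 that narrowly missed the threshold (adjusted p = 0.0548). Fkbp10 gave 0.14 in culture 1 against -0.90 and -0.66 in cultures 2 and 3, with a mean of -0.47 ± 0.55 (adjusted p = 0.206). Culture 1 thus went the other way, and without it the mean was -0.78 (adjusted p = 2.37e-20 with n = 2, within 2.37e-20 to 0.907 over all alternatives). With 2 cultures such p-values from limma rest mostly on a variance pooled over features, and 32.2% of all features were called there. They are weak evidence for a single gene. In all, 7 of the 11 ER members were below 0 in every culture measured and 0 were above 0 in every culture. The 7 include Hspa5 and Canx, whose ratios are limited by saturation, and Xbp1, measured in 2 cultures. The share of all features below 0 in every culture was not computed, so this count has no background beside it. Over the 8 that were not saturated, the median was -0.41, and it was -0.42, -0.29 and -0.39 in cultures 1, 2 and 3.

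Some chaperones stand on the array under older names that the naming rule does not reach, and their values are given for comparison. Hsp90b1 (GRP94), the HSP90 protein of the ER, gave -0.10, -0.03 and -0.34, with a mean of -0.16 ± 0.16 (adjusted p = 0.364). Hyou1, an ER exchange factor of the HSP110 kind, gave -1.10, -0.25 and -0.49, all below 0 but far apart (mean -0.61 ± 0.44, adjusted p = 0.0612). It was called lower in 5 of 15 alternatives that kept both dye orientations, and its orientations split into -1.41 with epithelial RNA in Cy3 and 0.19 with it in Cy5. Pdia4, a disulfide isomerase, had a mean of -0.15 ± 0.15 (adjusted p = 0.362), and Pdia3, which works with the lectin chaperones, 0.18 ± 0.17 (adjusted p = 0.287, saturated for mesenchymal RNA on 3 arrays). Pdia5, another disulfide isomerase, fell by 0.50 ± 0.07 (adjusted p = 0.00735), with -0.45, -0.58 and -0.48 in the 3 cultures and all 6 arrays below 0. Pdia5 and Calr4 (a mean of -0.06 ± 0.21, adjusted p = 0.797) were chosen after their values were seen.

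Promoters of the ER members were searched for the ER stress response element, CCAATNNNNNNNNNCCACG on either strand, through which ATF6 and XBP1 are known to act. The window ran from 250 bases before to 50 after each annotated start in RefSeq (GRCm38.p6), and 37 of the 43 genes had an entry. The element was found in 4 of 10 ER members with an entry (Hspa5, Calr, Canx and Dnajc3) and in 39 of 32851 promoters (0.119%) overall. Here and below, members are counted by gene, where a match at any start is enough. The overall share counts single promoters, so the shares are not measured alike. The stretches around it are shown 5′ to 3′ on the strand of the gene, with the element in capitals, since they set the called gene Dnajc3 beside 3 ER chaperones that were not called. They lie at chr2:34771985-34772083, plus strand (Hspa5), chr8:84847035-84847133, minus strand (Calr), chr11:50325760-50325858, minus strand (Canx) and chr14:118937787-118937885, plus strand (Dnajc3).

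Hspa5: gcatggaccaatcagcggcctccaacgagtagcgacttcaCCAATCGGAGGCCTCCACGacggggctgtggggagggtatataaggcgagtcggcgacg
Calr: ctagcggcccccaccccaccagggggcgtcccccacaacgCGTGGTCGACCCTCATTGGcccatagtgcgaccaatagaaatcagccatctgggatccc
Canx: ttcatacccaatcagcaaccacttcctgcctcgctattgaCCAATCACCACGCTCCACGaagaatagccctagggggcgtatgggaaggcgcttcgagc
Dnajc3: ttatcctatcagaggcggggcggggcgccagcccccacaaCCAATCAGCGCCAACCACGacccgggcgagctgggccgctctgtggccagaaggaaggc

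In Calr the element runs on the opposite strand. Counted from the start, with -1 the base before it, the element spans bases -65 to -47 in Hspa5, -162 to -144 in Calr, -145 to -127 in Canx and -105 to -87 in Dnajc3. Dnajc1 and Dnajb9 held no match in this window. TGACGTGG, the site known for XBP1, was found in 0 members and in 0.676% of all promoters. A match is a description of letters and was not tested for function. Genes with the element differed in their values, from -0.67 for Dnajc3 to 0.02 for Calr, with Hspa5 and Canx limited by saturation.

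Dnajc8 and Fkbp3 were the members that rose. Dnajc8, a nuclear J-domain protein found with the splicing machinery, gave 0.39, 0.41 and 0.27, above 0 on all 6 arrays. The mean was 0.36 ± 0.08, a 1.28-fold rise (adjusted p = 0.0259). Fkbp3, a nuclear prolyl isomerase, gave 0.60, 0.35 and 0.34 and was above 0 on all 6 arrays as well. The mean was 0.43 ± 0.14 (adjusted p = 0.0225). Mesenchymal RNA, the brighter one, was saturated on 3 arrays, and normalisation also shifts ratios at the ceiling, so that the size of this mean is uncertain. On the culture 3 array with epithelial RNA in Cy3, Fkbp3 read 0.28, beside 0.27 for P4hb, saturated for both RNAs. Each call was lost without culture 2 and without culture 3. The values were then 0.33 and 0.40 for Dnajc8 (0.36 with all 3 cultures) and 0.47 and 0.47 for Fkbp3 (0.43 with all 3).

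The small heat shock protein gene Hspb1, whose product binds unfolded protein and actin filaments, had the highest mean of all members without passing the threshold. It gave 0.89 in culture 1, 0.19 in culture 2 and 0.37 in culture 3, above 0 on all 6 arrays (mean 0.48 ± 0.37, adjusted p = 0.0824). Culture 1 was highest, and without it the mean was 0.28 (adjusted p = 0.00275 with n = 2, within 0.00275 to 1.00 over all alternatives). That setting called 32.2% of all features. Hspb7, a small heat shock protein of muscle, had a mean of -0.04 ± 0.08.

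HSP90 and HSP70 genes of the cytosol were not called. Hsp90aa1, the stress-inducible HSP90 gene, gave 0.50, 0.17 and 0.41 on its brightest probe, all above 0, and missed the threshold by little (mean 0.36 ± 0.17, adjusted p = 0.0512), with mesenchymal RNA saturated on 3 arrays. It was called higher in 5 of 15 alternatives that kept both dye orientations. With saturated probes left out, another probe put Hsp90aa1 at -0.0032 (limma adjusted p = 0.995). Hsp90ab1, the constitutive HSP90 gene, was saturated for both RNAs on all 6 arrays on 2 of its probes, and another, unsaturated probe gave -0.14 and -0.02 in the 2 cultures measured. For the brightest probe of Hspa8, the constitutive HSP70 gene, only 1 array had an epithelial signal below the ceiling and 0 had a mesenchymal one. The ratio of that probe is not interpreted. A much dimmer, unsaturated probe of Hspa8 gave 0.13, -0.23 and 0.08. Hspa14, an HSP70 relative that works at the ribosome, gave 0.66, 0.15 and 0.40 (mean 0.40 ± 0.26, adjusted p = 0.0687), and its second probe gave 0.42, 0.17 and 0.37. All 3 cultures were above 0 on both probes of Hspa14.

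The HSP110 exchange factors Hspa4 and Hsph1 had means of 0.05 ± 0.13 and 0.01 ± 0.09. Hspa4l, another gene of this kind that is listed under another name, had a mean of -0.26 ± 0.11 (adjusted p = 0.0868) with all 3 cultures below 0. Among cytosolic J-domain proteins, Dnajb1, the main stress-inducible one, gave 0.20, -0.02 and -0.03 (mean 0.05 ± 0.13, adjusted p = 0.801). Dnaja1, a partner of Hspa8, gave 0.07, 0.01 and 0.30 (mean 0.13 ± 0.15, adjusted p = 0.460). Dnajc7, which links HSP70 and HSP90, was above 0 on all 6 arrays on its brightest probe, at a mean of 0.22 ± 0.10 (adjusted p = 0.127). Its second, dimmer probe gave -0.25, 0.35 and 0.50, below 0 in culture 1 (mean 0.20 ± 0.40). Dnaja2, Dnajb2, Dnajb5 and Dnajb6 had means from 0.00 to 0.07. Of the 12 Dnaj genes as a whole, 1 rose and 3 fell (33.3% called, beside 11.9% of all features), and the 3 that fell are all in the ER.

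Cct genes encode subunits of the ring-shaped chaperonin that folds actin and tubulin. Of the 6, limma called 0, with 0 at an unadjusted p under 0.05 as well, and 5 of them were saturated. The unsaturated one, Cct3, gave 0.40, 0.01 and 0.09 (mean 0.17 ± 0.20, adjusted p = 0.389). Cct2, saturated for epithelial RNA on 4 arrays, gave 0.34, -0.24 and -0.11. A dim second probe of Cct4, which reaches the gene through a clone name, was not saturated and gave 0.27, 0.24 and 0.28, all above 0, where the saturated probe gave -0.07, -0.02 and 0.02 (adjusted p = 0.0638 for the dim probe with every probe tested as a feature). The unsaturated probes of Cct7 went both ways, with a mean of 0.11 ± 0.03 (n = 2) on one and -0.11 ± 0.15 on the other.

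Of the 8 Fkbp genes, 1 rose (12.5% called, near the 11.9% of all features). Fkbp4 and Fkbp5 encode partners of HSP90 at steroid receptors, and had means of -0.12 ± 0.10 (adjusted p = 0.424) and -0.06 ± 0.11 (adjusted p = 0.722). Fkbp1a, whose product binds the type I TGF-beta receptor, gave 0.71 in culture 1 and -0.46 and -0.15 in cultures 2 and 3. These cancel to a mean of 0.03 ± 0.61, and without culture 1 the mean was -0.31 (adjusted p = 0.000893 with n = 2, within 0.000893 to 1.00 over all alternatives). That setting called 32.2% of all features. Fkbp6 had a mean of 0.05 ± 0.10, and Fkbp8, which is anchored in the outer mitochondrial membrane, was measured in 2 cultures at 0.61 and 0.055. Hacd3, the member by name only, had a similar pattern to Fkbp10, with 0.04, -0.75 and -0.51 (mean -0.41 ± 0.40, adjusted p = 0.158).

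Culture 1 had the opposite sign to both cultures 2 and 3 in 12 of the 43 genes. The share over all features was not computed, so the count is not read as a trait of the members. Some of the 12 lay close to 0 in every culture, such as Dnaja2 at -0.02, 0.02 and 0.01. Without culture 1, 16 of 41 members measured were called (39.0%), beside 32.2% of all features under that setting. With cultures 1 and 2 alone, Dnajc3 was the only one of 42 members called, beside 4.86% of all features.

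In the mitochondrion, Hspa9, the HSP70 protein of the matrix, was saturated for both RNAs on all 6 arrays, and Hspe1, the co-chaperonin, for both on 5 arrays and for mesenchymal RNA alone on the last. Hspd1, the chaperonin HSP60, was not saturated and gave -0.03, 0.11 and 0.16, with a mean of 0.08 ± 0.10 (adjusted p = 0.624). Hspd1 and Hspe1 are neighbours that are read away from each other from a shared stretch of DNA. That stretch held the heat shock element GAANNTTCNNGAA, read in either direction, which was also found in Dnajb6 and, after the start, in Hsph1, and in 0.603% of all promoters. Among the members with a promoter entry, 4 of 37 held it; Hsp90aa1, Hsp90ab1, Hspa8, Hspa9, Cct4 and Fkbp10 had no entry and were not searched. The shared stretch is printed on the strand of Hspe1 (chr1:55088019-55088116, plus strand), and that of Dnajb6 (chr5:29735812-29735897, plus strand) beside it, because they are the members whose element lies before the start; capitals mark the element.

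Hspe1: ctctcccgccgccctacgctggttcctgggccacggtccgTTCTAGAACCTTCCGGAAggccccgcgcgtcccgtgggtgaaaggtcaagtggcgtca
Dnajb6: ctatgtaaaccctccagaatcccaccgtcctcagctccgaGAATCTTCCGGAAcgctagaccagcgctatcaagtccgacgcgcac

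The capitals in the shared stretch hold 2 overlapping matches, which span bases -89 to -72 from the start of Hspe1 and -144 to -127 from that of Hspd1. In Dnajb6 the match spans bases -46 to -34 from one of its starts. The 4 genes with the element had limma adjusted p-values from 0.624 (Hspd1) to 0.945 (Hsph1), with Hspe1 limited by saturation.

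Dye effects exceeded the change between cells for 29 of the 43 genes, a count that was not made over all features. It includes saturated genes such as Hsp90ab1 and P4hb, whose change is held near 0 by the ceiling. The dye effect itself passed the threshold in 25 of 43, beside 57.1% of all features. The 3 members with the widest split were Hspa4, Hsph1 and Dnaja2. Hspa4 averaged -1.03 on arrays with epithelial RNA in Cy3 and 1.12 on arrays with it in Cy5, and Hsph1 averaged -0.96 and 0.99. Averaging the orientations puts both near 0. Hsp90b1, read under its older name, split likewise into -1.12 and 0.81. Of the 5 called members, Dnajc3 (-0.62 and -0.71) and Fkbp3 (0.39 and 0.46) had nearly the same value in both orientations and were called in each. Fkbp3 was saturated for mesenchymal RNA on 3 arrays, so how close its values lie is uncertain. Dnajc1 and Dnajb9 were called only with epithelial RNA in Cy3, and Dnajc8 only with it in Cy5 (0.53, against 0.18).

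**Figure D2:**
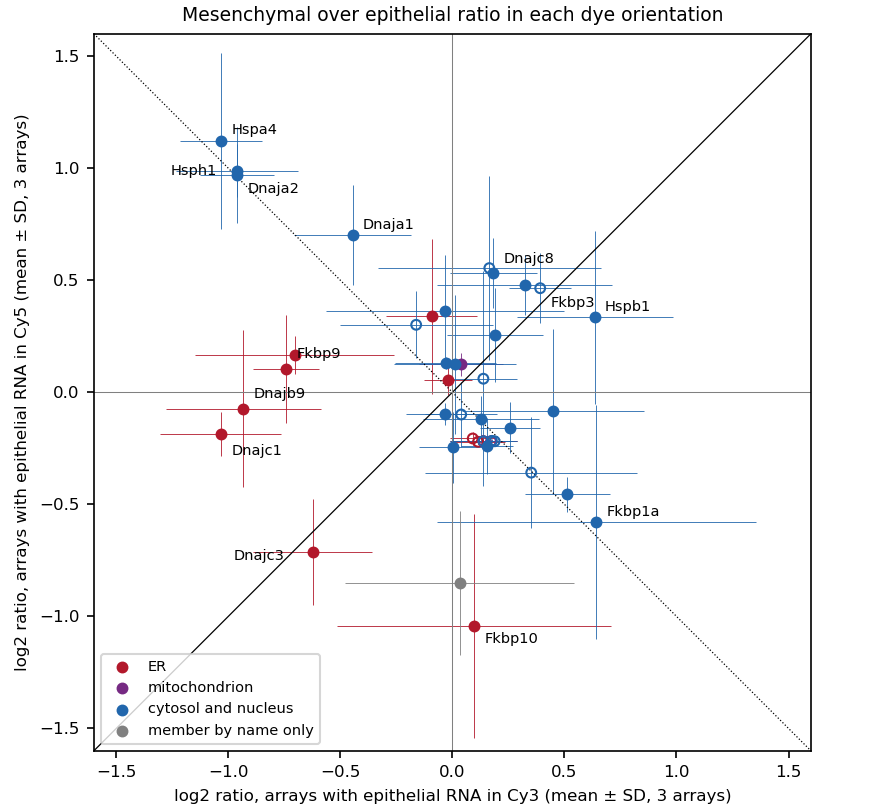
Each point is one of the 43 genes, with its mean log2 ratio of mesenchymal over epithelial RNA on the 3 arrays with epithelial RNA in Cy3 (x axis) against the 3 arrays with it in Cy5 (y axis), bars showing the SD over arrays; open points are saturated, the solid line marks equal values and the dotted line values that cancel. Dnajc3 and Fkbp3 lie by the solid line, Hspa4 and Hsph1 by the dotted one.

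Probes of the same gene differed for several members. The 4 probes of Hsp90aa1 had means of 0.36, -0.0032, 0.49 and 0.03 from the brightest to the dimmest, and in culture 2 the 2 probes of middle brightness stood at -0.42 and 0.99. The value near the threshold given above is therefore that of 1 probe of 4. Dnajb6, a J-domain protein that keeps aggregating proteins soluble, gave 0.07 ± 0.28 on its brightest probe and 0.33 ± 0.11 on its second, with 0.40, 0.39 and 0.20 in the 3 cultures (adjusted p = 0.0464 with every probe tested as a feature). The 2 dimmer probes of Dnaja2 gave -0.52 and -0.87 in culture 1, where the brightest gave -0.02. In cultures 2 and 3 these dimmer probes lay between 0.28 and 0.44.

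**Figure D3:**
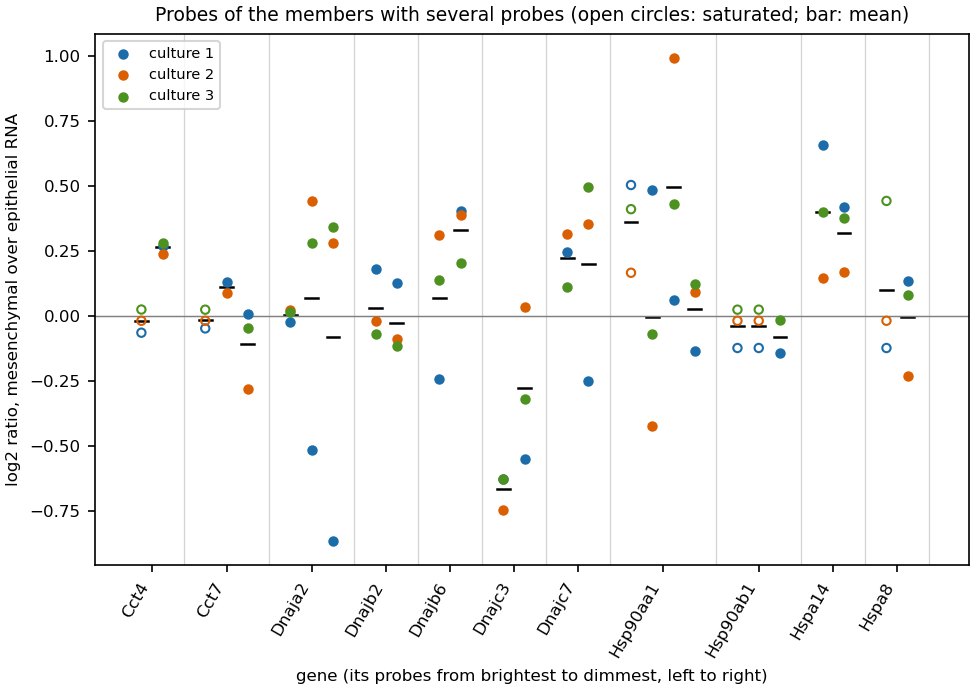
Log2 ratio of mesenchymal over epithelial RNA (y axis) for each probe of the 11 genes with several probes, ordered within a gene from the brightest to the dimmest, with a point per culture, a bar at the mean and open circles for saturated probes. The probes of Hspa14 lie together, and those of Hsp90aa1, Dnaja2, Dnajb6 and Dnajc3 lie apart, as do those of Dnajc7 in culture 1.

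Around the chaperones, genes that sense or relieve unfolded protein in the ER, or modify proteins there, were measured for 50 of 60 listed. Of these, 16 fell and 1 rose (34% called, beside 11.9% of all features), with a median of -0.17 beside -0.0030 over all features. The list was chosen with earlier results of these data known, so its share may reflect that choice and was not tested. The largest fall was that of Ero1a, the oxidase that recharges disulfide isomerases, at -1.68, -1.64 and -1.56 in cultures 1, 2 and 3 (mean -1.62 ± 0.06, adjusted p = 0.000173). P4ha1, a prolyl hydroxylase of collagen, fell by 1.21 ± 0.02 (n = 2, adjusted p = 0.00175), and that call was lost without culture 1 (-0.15) and without culture 3 (-0.12), where a dimmer probe stood for the gene because the brightest had no value in culture 2. Serpinh1, the collagen chaperone HSP47, fell by 1.01 ± 0.26 (adjusted p = 0.00287), and Nucb2, a calcium-binding protein of the secretory pathway, by 0.92 ± 0.15 (adjusted p = 0.00166). The sensors of the unfolded protein response were not called: Ern1 (IRE1) had a mean of -0.02, Eif2ak3 (PERK) -0.16 and Atf6 -0.06. Erp29, a chaperone of the disulfide isomerase family, was the gene that rose, by 0.37.

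Of 39 listed co-chaperones and heat shock factors, 34 were measured, 5 rose and 1 fell (17.6% called, beside 11.9% of all features), with a median of 0.09. This list, too, was chosen with earlier results known, and its share was not tested. The gene that fell was Lonp1, a protease of the mitochondrial matrix, by 0.44 ± 0.15 (adjusted p = 0.0203). St13, which helps HSP70 hold its clients, rose by 0.83 ± 0.17 (adjusted p = 0.00281) on its brightest probe, while the mean of its probes was -0.03. Pfdn5 and Pfdn1, subunits of prefoldin, which hands actin and tubulin to the chaperonin, rose by 0.74 ± 0.05 (adjusted p = 0.00179) and 0.47 ± 0.03 (adjusted p = 0.00792). The other prefoldin subunits measured were not called, with means of 0.10 ± 0.25 for Pfdn2 (adjusted p = 0.699), -0.05 ± 0.14 for Pfdn6 (adjusted p = 0.814) and -0.08 ± 0.30 for Vbp1 (adjusted p = 0.788). Sugt1, a partner of HSP90, rose by 0.48 ± 0.09 (adjusted p = 0.00978). Hsf1, the heat shock factor itself, gave -0.25, -0.24 and -0.33 and missed the threshold (mean -0.27 ± 0.05, adjusted p = 0.0551).

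**Figure D4:**
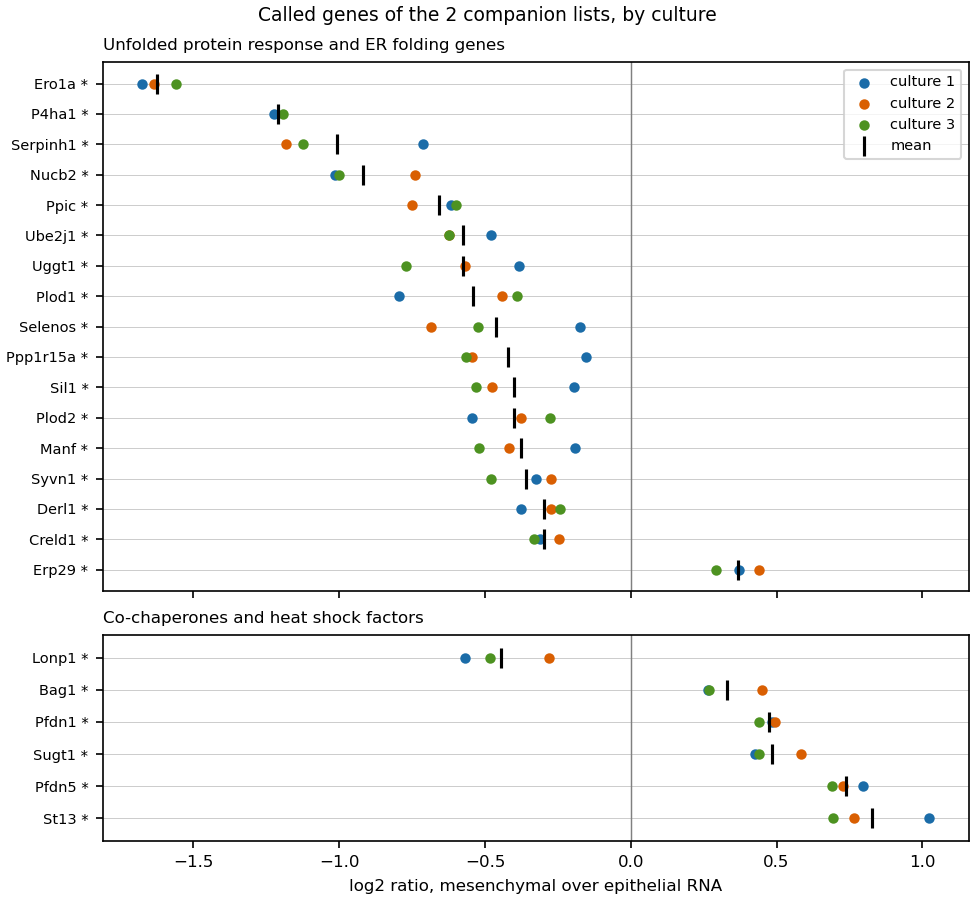
Log2 ratio of mesenchymal over epithelial RNA (x axis) of the called genes in the list of unfolded protein response and ER folding genes (17 genes) and in that of co-chaperones and heat shock factors (6 genes), with a point per culture and a bar at the mean. Ero1a lies farthest left, near -1.6, and Pfdn1, Pfdn5 and St13 lie right of 0 in all 3 cultures.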

How the data were processed

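RNA of 3 cultures was measured on 6 two-colour Agilent arrays. Per the file headers, the deposited intensities are spot means and local background medians as scanned by Agilent Feature Extraction A.7.1.1, and the deposited log10 ratios were background-subtracted and LOWESS dye-normalised by that software. The authors' deposited table of processed values is in log10 ratios, of which at least 99.9% lay within 0.001 of the mean of a culture's 2 arrays, turned to mesenchymal over epithelial. The submitters' processing notes name limma without settings. The dye orientation was taken from the names of the deposited arrays. The number of arrays limits precision.

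Intensities were corrected with normexp (offset 50) and normalised by loess within the array (limma 3.58.1, R 4.3.3, Python 3.11.15), with control spots at weight 0. Arrays were turned to mesenchymal over epithelial and averaged per culture, and outlier-flagged spots were left out. Probes needed the well-above-background flag for 1 RNA on at least 4 of 6 arrays (43 of 20371 removed), which is a weak filter, since up to 81.5% of negative controls carried it. The brightest probe measured in at least 2 cultures stood for a gene. Ratios were tested against 0 with lmFit and eBayes over 17582 features. On simulated data with these features, 21.3% of changes of 0.5, 76% of changes of 1 and 92% of changes of 2 (log2) were called, and 4 of 17382 unchanged features. Only 75, 75 and 50 features carried these changes, fewer than the 2088 called in the data. The adjusted p depends on how many features change, so the rates may be too low for the data. The 2 probes outside the naming rule reach Dnajc3 and Cct4 by synonyms.

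Members and lists were chosen with earlier results of these data known. Named genes are all called members, a fixed list of well-known chaperones whatever their values, and up to 4 called genes of each companion list. Members near the threshold or with disagreeing probes, the sensors, Erp29 and Hsf1 were added after their values were seen. Lonp1, Pfdn2, Pfdn6, Vbp1 and some further members also lie outside the rules for named genes. No set test was run. Protein sequences were not used here.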

Additional observations from a re-analysis of the deposited data

How the results depend on the processing

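The lower calls of Dnajc1 and Dnajc3 were kept in 13 of 15 alternatives that hold both dye orientations each, that of Dnajb9 in 9, and the rises of Dnajc8 in 11 and of Fkbp3 in 10 of 14. Leaving out each culture in turn gave 818 to 5154 called features (2088 with all 3), 0 to 9 members higher (2), 1 to 7 lower (3), 2 to 7 co-chaperones higher (5), 4 to 20 ER folding genes lower (16) and a median of the ER members of -0.28 to -0.15 (-0.32). Fkbp1a ranged from -0.31 without culture 1 to 0.28 without culture 2. The pairing of both RNAs in a culture comes from the design, and with no replicate block, that is, separate channels without a culture term, 244 features, 0 members higher, 0 lower, 0 co-chaperones higher and 1 ER folding gene lower were called by limma, beside 1, 3, 3 and 9 at an unadjusted p under 0.05.

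Median centring in place of loess called 4 members higher and 5 lower, with medians of -0.33 for the ER and -0.074 for the mitochondrial members. Leaving out saturated probes left 1 member higher and medians of -0.41 (ER) and 0.082 (mitochondrion), by construction from fewer genes. Trend and robust variance in limma called 0 members higher (6 at an unadjusted p under 0.05) and 8 ER folding genes lower. An adjusted p under 0.01 left 933 features, 0 members higher and 6 ER folding genes lower. The ER median was -0.34 with the scanner software's log ratios, -0.29 with the deposited value table, -0.27 with outlier-flagged spots kept and -0.28 with only the probes the naming rule gives, an alternative chosen after seeing the data. The mean over its probes put St13 at -0.031.

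Arrays of a single orientation keep the dye effect. With epithelial RNA in Cy3 alone, 7076 features, 3 members higher, 9 lower, 8 co-chaperones higher and 29 ER folding genes lower were called. The medians were then -0.092 (ER), 0.15 (cytosol and nucleus) and 0.14 (mitochondrion), with Dnaja1 at -0.44, Hspa4 at -1.03 and Hsph1 at -0.96. With epithelial RNA in Cy5 alone, 5879 features, 7 members higher, 4 lower, 9 co-chaperones higher and 12 ER folding genes lower were called, the medians were -0.19 (ER) and -0.22 (mitochondrion), and Hsp90b1 was at 0.81. Beyond what these alternatives change by construction, the cause was not tested. Saturation limits 14 of the 43 genes, and the number of cultures, 3, limits the detection of small differences.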
